A study of Mus musculus with 6 samples.

Results

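Long noncoding RNA (lncRNA) genes are described here as macrophages transcribed them after a fungal challenge, with and without a pretreatment with rmMETRNL. The members are the genes that the deposited table classes as lincRNA, antisense, processed_transcript, bidirectional_promoter_lncRNA, sense_intronic or sense_overlapping and whose mean over the 6 libraries was at least 1 FPKM (fragments per kilobase of gene length, scaled to library size). There were 307 of them among 54532 genes in the table, or 307 of the 9677 genes in those 6 classes and of the 9867 genes of any class at that level. By class, 131 were antisense, 97 lincRNA, 48 processed_transcript, 21 sense_intronic, 9 bidirectional_promoter_lncRNA and 1 sense_overlapping. In all, 196 have only a Gm number and 111 have another symbol. The members were chosen by their class and by this mean level, so their levels are given as a description.

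The rmMETRNL group was 3 samples of primary macrophages from WT mice, treated in vitro with rmMETRNL for 6 h and then challenged with the yeast Candida albicans for 6 h. The vehicle group was 3 samples of the same cells, given vehicle and the same challenge. METRNL (meteorin-like) is a secreted protein. Both groups met the fungus, so no sample gives the level without it. The labels give neither the age of the mice nor the source organ of the macrophages, nor if the 3 samples per group are separate animals, cultures or repeats, so a p-value speaks of the spread among these samples alone, and that spread may be technical. The short column names were assigned to the groups by their letters, and every direction below rests on that reading.

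LncRNAs are transcripts without a long reading frame, and most are made at lower levels than messenger RNAs. Some stay in the nucleus and scaffold nuclear bodies (Malat1, Neat1) or silence a chromosome (Xist). Others are carriers: their introns or exons are cut to release small nucleolar RNAs (snoRNAs), which guide chemical modification of ribosomal RNA, or microRNAs, which repress messenger RNAs that pair with their seed. In macrophages several lncRNA genes are switched on by microbial products, among them the host of miR-155 and Ptgs2os2, also known as lincRNA-Cox2.

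Reads recovered from the FPKM values summed to 13235001 to 18145733 per library, of which the members took 74924 to 100965, or 0.529% to 0.595%. All 10 macrophage markers checked were at 1 FPKM or more, and their summed level was 9455 to 9747 FPKM in rmMETRNL libraries, against 9695 to 10238 FPKM in vehicle libraries. The extraction text in the labels speaks of retinas, but 0 of 8 retina markers reached 1 FPKM, 3 of the 8 were at 0 in every library, and their sum was 0.623 to 0.855 FPKM in rmMETRNL libraries, against 0.446 to 0.546 FPKM in vehicle libraries. Of 6 neutrophil markers, S100a8 and S100a9 were above 1 FPKM, 1 was at 0 throughout, and the sum was 116.7 to 124.5 FPKM in rmMETRNL libraries, against 104.8 to 114.1 FPKM in vehicle libraries. Of the other lists, the mast cell genes Cma1 and Cpa3 (of 4) reached 1 FPKM, and that list summed to 6.21 to 9.87 FPKM in rmMETRNL libraries, against 4.72 to 9.40 FPKM in vehicle libraries. Also at 1 FPKM or more were Dcn, Col1a1 and Col1a2 of 4 fibroblast genes, which summed to 7.03 to 7.72 FPKM in rmMETRNL libraries, against 7.24 to 7.64 FPKM in vehicle libraries. Trac of 5 T cell genes (sum 1.56 to 3.61 FPKM in rmMETRNL libraries, against 1.47 to 2.57 FPKM in vehicle libraries) and Cd79a of 4 B cell genes (3.79 to 4.08 FPKM in rmMETRNL libraries, against 3.13 to 4.29 FPKM in vehicle libraries) did too. Of the epithelial and mesothelial, erythroid and dendritic cell markers, 0 reached 1 FPKM. The part of these markers in the differences below was not tested. In bulk RNA, fewer cells of a type and less RNA per cell cannot be told apart.

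Small RNAs that 5 of the lncRNA genes carry are shown because the host genes are described by them below. RefSeq lists further mature products of Mir155hg, Mir22hg, Dleu2 and 1700016P03Rik, which are not shown. Mature sequences are from RefSeq (GRCm38.p6), written from the first base, with the seed (bases 2 to 8) in capitals. The Mir155hg product shown lies on the plus strand at chr16:84714143-84714165 and that of Mir22hg on the plus strand at chr11:75463772-75463793. Both of Mir142hg lie on the plus strand at chr11:87756867-87756887 and chr11:87756903-87756925. The products of Dleu2 that are shown lie on the minus strand at chr14:61632075-61632096 and chr14:61631936-61631957. Those shown from inside 1700016P03Rik lie on the plus strand at chr11:75173723-75173744 and chr11:75173443-75173464.
mmu-miR-155-5p: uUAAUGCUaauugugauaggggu
mmu-miR-22-3p: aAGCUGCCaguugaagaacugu
mmu-miR-142a-5p: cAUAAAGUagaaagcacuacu
mmu-miR-142a-3p: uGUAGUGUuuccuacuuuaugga
mmu-miR-15a-5p: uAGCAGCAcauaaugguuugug
mmu-miR-16-5p: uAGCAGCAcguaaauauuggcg
mmu-miR-132-3p: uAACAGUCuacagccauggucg
mmu-miR-212-3p: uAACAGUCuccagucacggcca
The Dleu2 pair, miR-15a-5p and miR-16-5p, shares 1 seed, and so does the pair miR-132-3p and miR-212-3p. The table measures the host transcripts, and the mature microRNAs were not measured.

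The comparison asked which lncRNA genes rmMETRNL moves, against vehicle, in macrophages that meet Candida. Limma on log2(FPKM + 1), with Benjamini-Hochberg adjustment over all 9867 genes, called 0 of the 307 members at an adjusted p of 0.05, where it called 0% of all genes tested, and the lowest adjusted p of a member was 0.151. Unadjusted p-values under 0.05 were found for 53 members, or 17.3%, against 14.7% of all genes tested. Of the 53, 31 were higher with rmMETRNL (7.54% of all genes tested were) and 22 lower (7.13% of all genes). The groups did not overlap, meaning that every value of one exceeded every value of the other, in 57 members (18.6%), against 21.5% of all genes. Of the 57, 32 were higher with rmMETRNL (10.9% of all genes were) and 25 lower (10.6% of all genes). Both shares of members are near those of all genes when levels are pooled. Between 1 and 2 FPKM, unadjusted p-values under 0.05 were found for 14% of 136 members and 4.14% of 1376 protein-coding genes. There the groups did not overlap in 10.3% of those members, against 14.1% of those protein-coding genes. Replicates of those members scattered more, with a median coefficient of variation within a group of 29.6%, against 13.4% for those protein-coding genes. The p-values and the overlaps thus point opposite ways. The 14% is not read as a response to rmMETRNL, and its cause was not tested. The median log2 fold change of the members was 0.015 and that of all genes was -0.0056. The members' median was -0.017 without rmMETRNL library 1, -0.0011 without vehicle library 2 and -0.012 at a minimum of 5 FPKM. With 3 against 3 libraries an exact permutation test of a single gene cannot give a p below 0.1.

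Voom, limma's method for counts, was run on the recovered reads as an alternative and called 5 members (1.63%), where it called 0.618% of all genes tested. Higher with rmMETRNL in that test were Neat1, Mir22hg, 4930430E12Rik and Gm13571, and lower was AI506816. Their adjusted p-values in voom lay between 0.0196 and 0.0493, close to the threshold, and between 0.151 and 0.199 in limma on log2(FPKM + 1). The fold changes and SEs printed below are those of limma on log2(FPKM + 1), rmMETRNL over vehicle, a scale that understates the change of low genes. The SEs of low genes can be smaller there than in voom. For 4833427F10Rik, D730003I15Rik and Gm48653 they were 0.07, 0.10 and 0.11 in limma, against 0.17, 0.24 and 0.25 in voom. For Neat1, a higher gene, the SE was 0.06 in both.

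**Figure D1:**
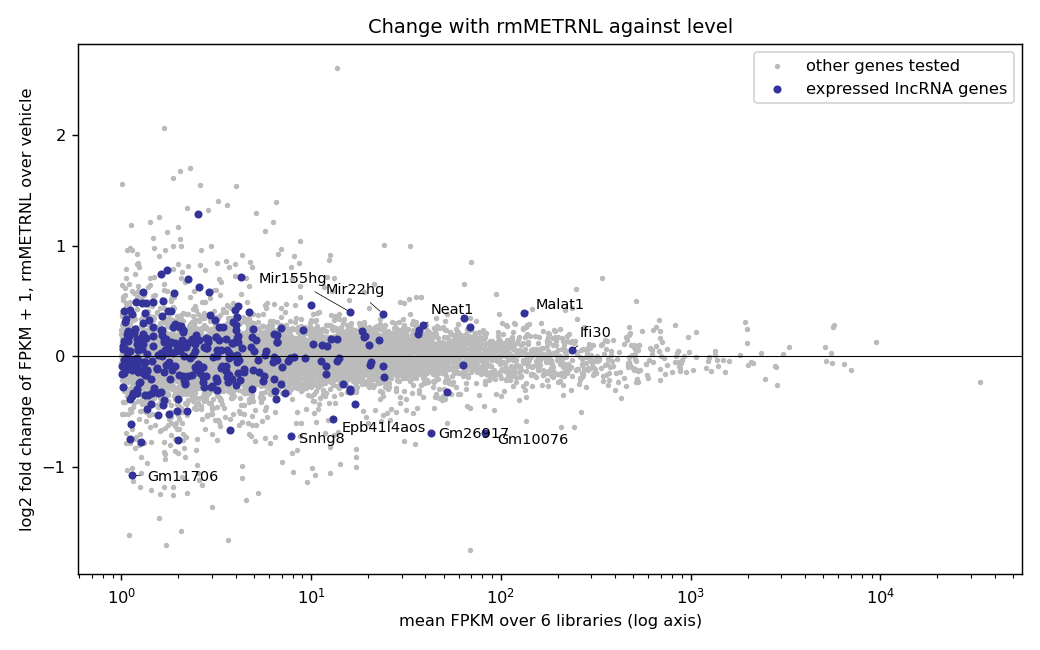
Log2 fold change of FPKM + 1 (rmMETRNL over vehicle, vertical axis) against mean FPKM over 6 libraries (horizontal log axis) for the 307 lncRNA genes (blue) and the other genes tested (grey). Most lncRNA genes sit at the low end, 136 of them between 1 and 2 FPKM.

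The members were low and short next to the protein-coding genes tested. Their median level was 2.23 FPKM, against 6.72 FPKM, and their median length 1043 bases, against 4275 bases. Of the 307, 37 members reached 10 FPKM and 136 lay between 1 and 2 FPKM. Replicates of the members also scattered more: the median coefficient of variation within a group was 21.2%, against 7.55% for protein-coding genes. At the same level the gap remained, with 29.6% for the 136 members between 1 and 2 FPKM and 13.4% for the 1376 protein-coding genes there, whose median lengths were 953.5 and 4838 bases. A median member had 37 to 54 reads per library. For a gene of 1 kb, 10 reads make 0.549 to 0.748 FPKM, so differences of that size in a short gene rest on few reads.

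The nuclear RNAs were among the highest lncRNAs. Malat1, a component of nuclear speckles (chromosome 19, 5795690 to 5802672, GRCm38), had 174, 151 and 125 FPKM in rmMETRNL libraries 1, 2 and 3, against 99.8, 144.5 and 100.4 FPKM in vehicle libraries 1, 2 and 3. Vehicle library 2 reached into the rmMETRNL values, so the groups overlapped, and the log2 fold change of 0.39 had an SE of 0.18 (limma, adjusted p = 0.363). Neat1, the scaffold of paraspeckles and Malat1's neighbour on chromosome 19 (5824708 to 5845478), had 39.6, 43.1 and 45.1 FPKM in rmMETRNL libraries, against 34.1, 33.8 and 36.5 FPKM in vehicle libraries. All 3 rmMETRNL values lay above all 3 vehicle values, with a log2 fold change of 0.28 and an SE of 0.06 (adjusted p = 0.199 in limma and 0.0411 in voom). Frmd8, the coding gene nearest to Neat1, had 8.09, 8.58 and 7.26 FPKM in rmMETRNL libraries, against 7.90, 7.82 and 8.03 FPKM in vehicle libraries, and its groups overlapped.

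Xist, which coats the inactive X chromosome, had 56.1, 57.5 and 71.9 FPKM in rmMETRNL libraries, against 60.8, 65.9 and 67.7 FPKM in vehicle libraries, with overlapping groups. Tsix, the gene on its opposite strand that shares 11.03% of the exon bases of Xist, had at most 0.0123 FPKM in a library. RefSeq names 2900097C17Rik as Norad, an RNA that binds Pumilio proteins. It had 19.1, 21.7 and 20.5 FPKM in rmMETRNL libraries, against 18.5, 16.7 and 18.5 FPKM in vehicle libraries, groups that did not overlap (limma, log2 fold change 0.18, SE 0.07, adjusted p = 0.311). Of its 31-base words, 44.7% also occur in another gene.

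Tug1, a conserved RNA first named for its induction by taurine, had 10.95, 10.92 and 11.53 FPKM in rmMETRNL libraries, against 11.64, 11.49 and 11.33 FPKM in vehicle libraries. Lncpint, a target of p53, had 1.69, 1.39 and 0.832 FPKM in rmMETRNL libraries, against 0.796, 1.33 and 1.24 FPKM in vehicle libraries. Both overlapped between groups. Over the 6 members of the list of 17 nuclear RNAs, 4 had a positive and 2 a negative log2 fold change, 2 (33.3%) had groups that did not overlap, against 21.5% of all genes tested, limma called 0 and the median was 0.14, against -0.0056 over all genes tested. The other 11, among them Kcnq1ot1, Meg3, Firre and Jpx, were below 1 FPKM. This list and the lists below were chosen with earlier results of these data known. Their genes share the same libraries, so counts over a list are a description.

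All 4 microRNA host genes of a list of 17 that reached 1 FPKM had a positive log2 fold change, with a median of 0.27, against -0.0056 over all genes tested. Limma called 0 of the 4 and voom 1, where it called 0.618% of all genes tested. Taken by annotation instead, 7 members hold a microRNA gene inside, 5 of them with a positive and 2, Zswim6 and Gm11613, with a negative log2 fold change, and a median of 0.10. Mir155hg, the host of a microRNA that Toll-like receptor signals induce in macrophages (chromosome 16, 84703167 to 84715245), had 15.8, 19.97 and 19.7 FPKM in rmMETRNL libraries, against 14.7, 12.3 and 14.2 FPKM in vehicle libraries. Its groups did not overlap, with rmMETRNL library 1 closest to vehicle (log2 fold change 0.40, SE 0.11, adjusted p = 0.238 in limma and 0.103 in voom). Mir22hg (chromosome 11, 75461539 to 75466676) had 24.98, 29.97 and 26.7 FPKM in rmMETRNL libraries, against 21.6, 19.4 and 20.6 FPKM in vehicle libraries. These groups did not overlap either (log2 fold change 0.39, SE 0.08, adjusted p = 0.189 in limma and 0.0493 in voom). Mir22hg shares 10.7% of its exon bases with Tlcd2, which had 1.43 to 1.86 FPKM in rmMETRNL libraries, against 1.33 to 1.78 FPKM in vehicle libraries.

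Mir142hg, the host of a microRNA of blood cells, had 18.9, 21.8 and 21.8 FPKM in rmMETRNL libraries, against 17.7, 19.8 and 20.6 FPKM in vehicle libraries. Dleu2, the host of miR-15a and miR-16-1, had 1.101, 1.46 and 1.45 FPKM in rmMETRNL libraries, against 1.04, 0.944 and 1.28 FPKM in vehicle libraries. Both overlapped between groups, in each case through rmMETRNL library 1. The host of miR-132 and miR-212, 1700016P03Rik, is on none of the lists and had 2.11 to 3.13 FPKM in rmMETRNL libraries, against 1.99 to 3.14 FPKM in vehicle libraries. It shares 74.3% of its exon bases with Ovca2 on the opposite strand, and reads of the pair cannot be told apart without a stated strand setting. The other members of the list found below 1 FPKM were 9, among them Mir17hg, Pvt1 and H19, and 4 symbols were not matched.

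The snoRNA host genes leaned the other way. Of 29 symbols on the list 10 were members, 9 of them with a negative log2 fold change, and their median was -0.20, against -0.0056 over all genes tested. Limma called 0 of the 10, and voom called 0, where it called 0.618% of all genes tested. Of the 10, 6 had groups that did not overlap, all lower with rmMETRNL, where 10.6% of all genes tested were. The list was chosen with earlier results of these data known, and its genes share the same libraries. These counts are thus a description and not independent support for a direction. Taken by annotation instead, 15 members hold a snoRNA gene inside, 13 of them with a negative log2 fold change and a median of -0.19. The 15 include Cct6a and Gm15832, which RefSeq classes as protein-coding. The median deviation of the 10 listed genes from their vehicle means was -0.14, -0.28 and -0.25 in rmMETRNL libraries 1, 2 and 3, and -0.08, 0.01 and 0.02 in vehicle libraries 1, 2 and 3, on the log2(FPKM + 1) scale. All 3 rmMETRNL libraries lay below all 3 vehicle libraries, with vehicle library 1 between the rest.

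Snhg8, the host of the snoRNA Snora24 (chromosome 3, 123507552 to 123508404), had 5.81, 5.08 and 5.85 FPKM in rmMETRNL libraries, against 9.05, 13.9 and 7.47 FPKM in vehicle libraries. The groups did not overlap, and vehicle library 2 stood highest (limma, log2 fold change -0.72, SE 0.20, adjusted p = 0.238), with a fold change of -0.49 when that library was left out. Epb41l4aos had 10.8, 6.97 and 14.1 FPKM in rmMETRNL libraries, against 14.9, 15.7 and 16.2 FPKM in vehicle libraries. Its groups did not overlap, and rmMETRNL library 2 stood lowest (limma, log2 fold change -0.56, SE 0.21, adjusted p = 0.319), with a fold change of -0.31 without that library. Snhg6, which holds Snord87, had 14.03, 12.8 and 13.1 FPKM in rmMETRNL libraries, against 14.6, 17.2 and 16.4 FPKM in vehicle libraries, without overlap (limma, log2 fold change -0.25, SE 0.07, adjusted p = 0.244). Mcmdc2 shares 11.1% of the exon bases of Snhg6 and had at most 0.0544 FPKM in a library.

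The most abundant snoRNA carrier was 2410006H16Rik (chromosome 11, 62602877 to 62604807), which holds Snord49a, Snord49b and Snord65 and is not on the list of symbols. It had 48.6, 41.4 and 48.3 FPKM in rmMETRNL libraries, against 54.4, 64.3 and 55.3 FPKM in vehicle libraries, with no overlap (limma, log2 fold change -0.32, SE 0.09, adjusted p = 0.240). The coding gene 77 bases away, Lrrc75a, lay on the other side: it had 6.90, 6.25 and 7.36 FPKM in rmMETRNL libraries, against 5.88, 5.30 and 4.68 FPKM in vehicle libraries. AI506816 (chromosome 5, 23698296 to 23712667), in which the annotation places Mir3096 under the class snoRNA, had 13.5, 14.2 and 14.9 FPKM in rmMETRNL libraries, against 19.1, 17.3 and 17.4 FPKM in vehicle libraries. Its groups did not overlap (log2 fold change -0.32, SE 0.06, adjusted p = 0.189 in limma and 0.0411 in voom), and 22.1% of its 31-base words occur in another gene. Srpk2, 13679 bases away, had 2.47, 2.58 and 2.87 FPKM in rmMETRNL libraries, against 2.33, 2.03 and 2.36 FPKM in vehicle libraries. Srpk2 was higher without overlap between groups.

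Gas5, whose introns carry many box C/D snoRNAs, had 5.87, 6.36 and 5.25 FPKM in rmMETRNL libraries, against 6.37, 7.34 and 6.92 FPKM in vehicle libraries, groups that came close without overlap (limma, log2 fold change -0.21, SE 0.08, adjusted p = 0.322). Snhg5 had 2.01, 2.10 and 1.99 FPKM in rmMETRNL libraries, against 2.59, 2.25 and 2.48 FPKM in vehicle libraries, and Snhg17 had 1.06, 0.723 and 0.717 FPKM in rmMETRNL libraries, against 1.245, 1.19 and 1.22 FPKM in vehicle libraries. The groups of Snhg5 and Snhg17 did not overlap. Zfas1, Snhg1, Snhg12 and Snhg15 lay between 1.99 and 5.601 FPKM in rmMETRNL libraries, against 2.64 and 5.48 FPKM in vehicle libraries, and each overlapped between groups. Snhg1 was the 1 listed gene with a positive log2 fold change, at 3.68, 4.53 and 3.45 FPKM in rmMETRNL libraries, against 3.42, 3.60 and 4.64 FPKM in vehicle libraries. Of the rest of the list, 8 symbols, among them Dancr and Snhg3, were below 1 FPKM, Snhg11 is classed as protein-coding in the table, and 10 were not matched.

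**Figure D2:**
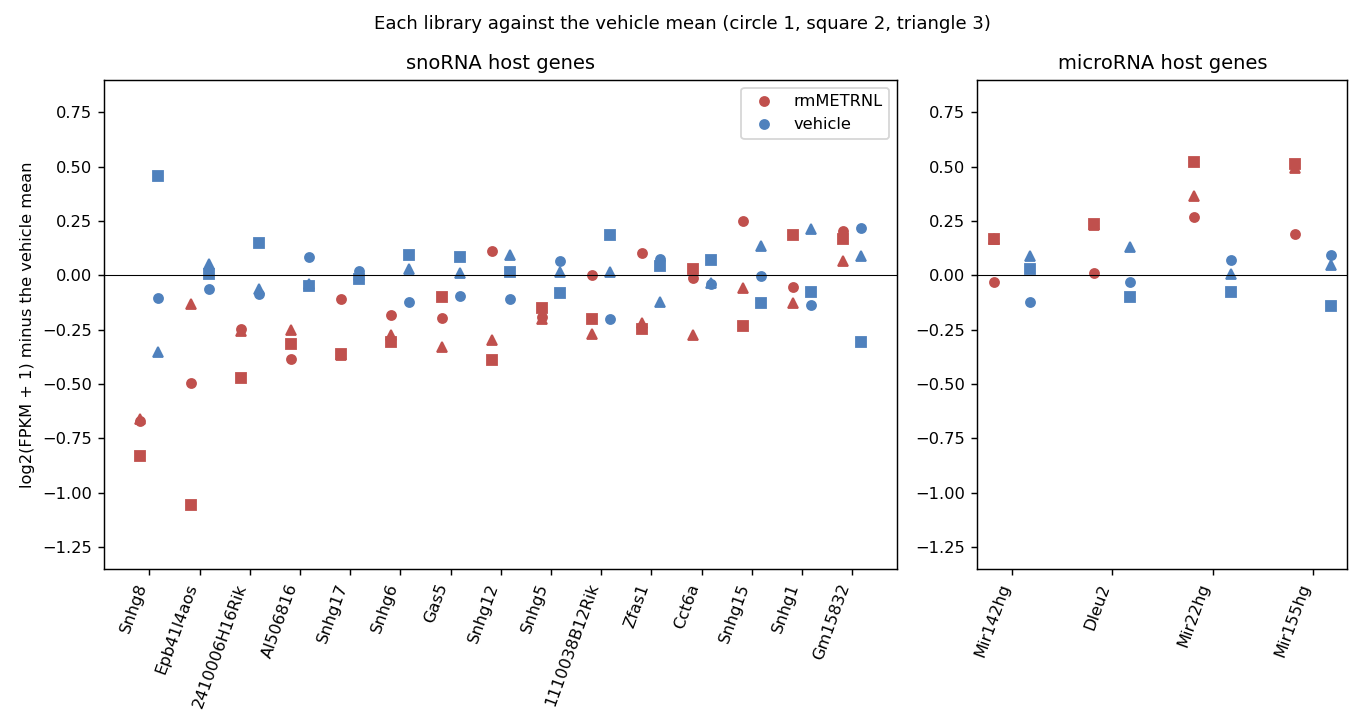
Log2(FPKM + 1) of each library minus the vehicle mean of that gene. Shown are the 15 members with a snoRNA gene inside (left) and the 4 listed microRNA host genes (right). RefSeq classes Cct6a and Gm15832, among the 15, as protein-coding. Red symbols are rmMETRNL libraries, blue are vehicle libraries, and circle, square and triangle are libraries 1, 2 and 3. Of the 15 snoRNA carriers, 13 have an rmMETRNL mean below the vehicle mean, and all 4 listed microRNA hosts have one above it; of the 7 members with a microRNA gene inside, not all of which are drawn, 5 do.

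Start sites of snoRNA host genes are shown because transcripts of this kind often begin within a run of pyrimidines. RefSeq promoter entries (GRCm38.p6) were found for 13 of the 15 members with a snoRNA inside, and the letters CTTT, searched on the transcript strand alone within 10 bases on either side of the start, were in 5 of the 13 (38.5%) and in 2571 of 32851 entries of all genes (7.83%). The runs below give 20 bases before the start and 20 from it, 5′ to 3′ on the transcript strand, so the start is base 21, and a match is in capitals. They lie at chr3:123508317-123508356 (Snhg8, minus strand), chr11:62602857-62602896 (2410006H16Rik, plus strand), chr4:132308658-132308697 (Snhg12, plus strand), chr11:6528741-6528780 (Snhg15, minus strand), chr17:34952452-34952491 (1110038B12Rik, minus strand) and chr1:161034581-161034620 (Gas5, plus strand).
Snhg8: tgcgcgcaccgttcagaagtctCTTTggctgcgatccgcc
2410006H16Rik: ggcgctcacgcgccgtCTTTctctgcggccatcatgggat
Snhg12: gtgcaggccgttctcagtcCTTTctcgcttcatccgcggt
Snhg15: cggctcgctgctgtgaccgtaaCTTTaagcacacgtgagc
1110038B12Rik: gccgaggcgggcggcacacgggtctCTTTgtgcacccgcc
Gas5: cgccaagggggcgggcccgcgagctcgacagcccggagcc
Gas5 holds no match in this window and is shown for comparison. The RefSeq start of Snhg8 lies 68 bases and that of Gas5 179 bases from the start in the deposited table. The largest distances among the 13 were 25345 bases (Gm15832) and 358 bases (Cct6a), both without a match. The windows and the count of 5 of 13 thus depend on which start is taken. A match describes the letters alone. Among the 5 with a match, Snhg8 and 2410006H16Rik had groups that did not overlap, and Snhg12, Snhg15 and 1110038B12Rik had groups that did.

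RNAs studied in inflammation or in myeloid cells showed no common direction. Of 18 symbols on the list 13 were members, with 8 positive and 5 negative log2 fold changes and a median of 0.0061. That median was below 0 in voom (-0.0010) and without vehicle library 1 (-0.0061), vehicle library 2 (-0.0209) or rmMETRNL library 1 (-0.0113). Limma called 0 of the 13, and 6 (46.2%) had groups that did not overlap, against 21.5% of all genes tested. Of the 6, 3 were higher (10.9% of all genes were) and 3 lower with rmMETRNL (10.6% of all genes). Ptgs2os2 (chromosome 1, 150159043 to 150164948), an RNA that regulates immune genes in mouse macrophages, had 6.23, 4.60 and 5.68 FPKM in rmMETRNL libraries, against 3.37, 4.07 and 4.31 FPKM in vehicle libraries. All rmMETRNL values were above all vehicle values (limma, log2 fold change 0.40, SE 0.12, adjusted p = 0.252). Ptgs2, the prostaglandin synthase gene 50816 bases away, had 1927, 2132 and 2380 FPKM in rmMETRNL libraries, against 1712, 1831 and 1871 FPKM in vehicle libraries, also without overlap.

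AW112010 (chromosome 19, 11047617 to 11050566), an RNA induced by bacterial products in mouse macrophages and reported to encode a small protein, had 11.5, 15.3 and 16.2 FPKM in rmMETRNL libraries, against 17.9, 16.4 and 18.5 FPKM in vehicle libraries. Its groups did not overlap, with rmMETRNL library 1 well below the rest (limma, log2 fold change -0.29, SE 0.12, adjusted p = 0.342), and without that library the fold change was -0.15. Mirt1 had 3.01, 2.46 and 2.47 FPKM in rmMETRNL libraries, against 3.18, 3.33 and 3.67 FPKM in vehicle libraries, without overlap (limma, log2 fold change -0.27, SE 0.09, adjusted p = 0.274). It shares 11.8% of its exon bases with 4833407H14Rik on the opposite strand, itself a member at 9.14, 9.14 and 9.35 FPKM in rmMETRNL libraries, against 8.04, 10.8 and 9.39 FPKM in vehicle libraries. RefSeq names Gm14005 as Morrbid, which represses the death gene Bcl2l11 in short-lived myeloid cells. It had 2.25, 2.02 and 2.15 FPKM in rmMETRNL libraries, against 2.34, 1.99 and 2.06 FPKM in vehicle libraries, and Bcl2l11 itself had 4.45, 3.54 and 4.22 FPKM in rmMETRNL libraries, against 5.17, 4.24 and 4.78 FPKM in vehicle libraries. Both overlapped between groups. Mirt2 and Dnmt3aos lay between 0.679 and 2.14 FPKM in rmMETRNL libraries, against 0.997 and 1.89 FPKM in vehicle libraries, and Ptgs2os, Hotairm1, Nron, Trp53cor1 and F630028O10Rik were below 1 FPKM.

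**Figure D3:**
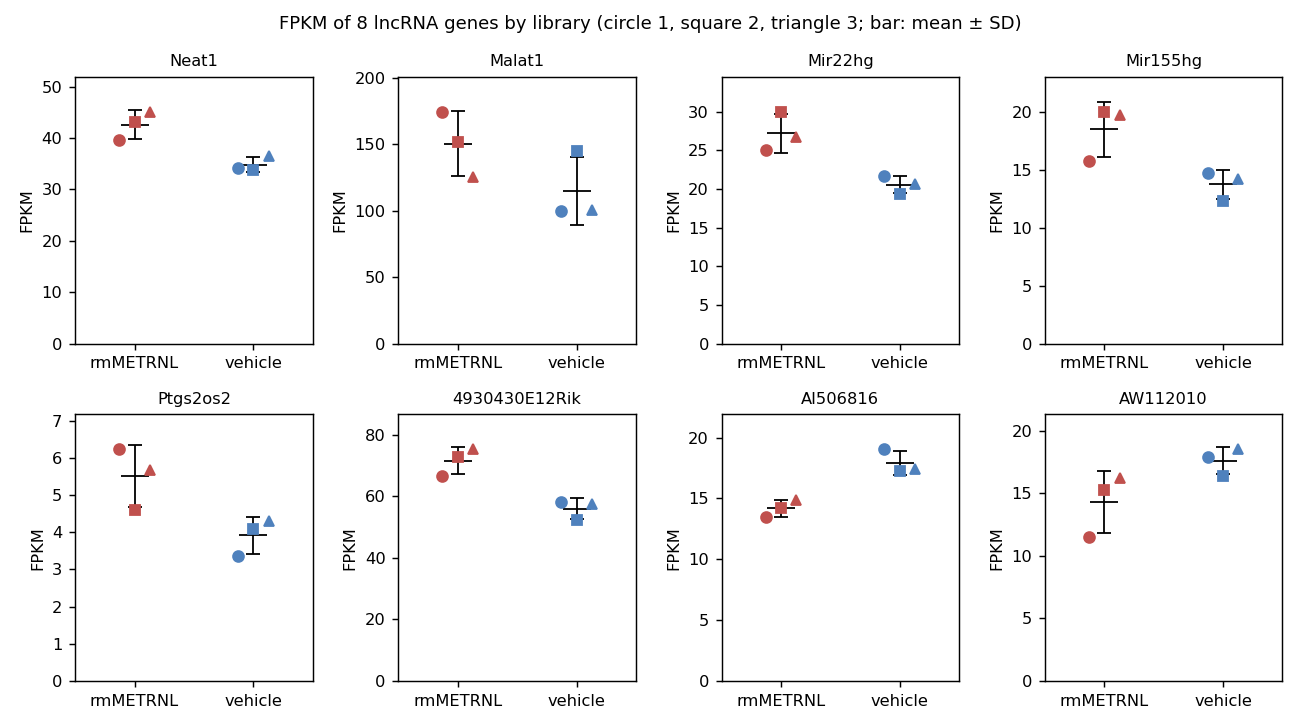
FPKM of 8 lncRNA genes in each library (red, rmMETRNL; blue, vehicle; circle, square and triangle are libraries 1, 2 and 3), with the mean and SD of each group (n = 3). Neat1, Mir22hg, Mir155hg, Ptgs2os2 and 4930430E12Rik have all rmMETRNL values above all vehicle values, AI506816 and AW112010 have them below, and Malat1 overlaps.

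Among the 10 higher non-Gm members with the smallest p, adjusted p-values in limma lay between 0.158 and 0.319. The gene 4930430E12Rik (chromosome 4, 6352105 to 6357530) had 66.8, 72.7 and 75.3 FPKM in rmMETRNL libraries, against 58.3, 52.2 and 57.5 FPKM in vehicle libraries, with a log2 fold change of 0.35 and an SE of 0.07 (adjusted p = 0.189 in limma and 0.0468 in voom). Sdcbp, the coding gene nearest to it at 8120 bases, encodes the adaptor syntenin and had 228.4, 245.7 and 239.4 FPKM in rmMETRNL libraries, against 201.6, 207.5 and 219.0 FPKM in vehicle libraries. Both genes were higher in every rmMETRNL library than in any vehicle library. The gene 4833427F10Rik (chromosome 17, 35772450 to 35780687) had 4.62, 4.62 and 4.85 FPKM in rmMETRNL libraries, against 3.58, 3.20 and 3.02 FPKM in vehicle libraries (limma, log2 fold change 0.42, SE 0.07, adjusted p = 0.158). The stress response gene Ier3, 40997 bases from it, had 2122, 2174 and 2128 FPKM in rmMETRNL libraries, against 1730, 1765 and 1701 FPKM in vehicle libraries.

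E230013L22Rik, whose start lies 781 bases from that of the small GTPase gene Rab20 on the other strand, had 2.36, 1.99 and 2.51 FPKM in rmMETRNL libraries, against 1.96, 1.49 and 1.72 FPKM in vehicle libraries. Rab20 had 88.4, 87.2 and 86.5 FPKM in rmMETRNL libraries, against 75.7, 72.9 and 75.6 FPKM in vehicle libraries, and shares 19.2% of the exon bases of the lncRNA gene. Neither overlapped between groups. Dubr had 12.8, 12.9 and 14.6 FPKM in rmMETRNL libraries, against 11.8, 12.04 and 11.95 FPKM in vehicle libraries, without overlap. The remaining gene of the 10, 1700025N21Rik, had 3.10, 2.51 and 1.28 FPKM in rmMETRNL libraries, against 0.577, 0.872 and 1.36 FPKM in vehicle libraries, which overlapped through library 3 of each group. Its log2 fold change of 0.74 had an SE of 0.25 (limma, adjusted p = 0.279). This gene overlaps the span of the coding gene Chst11. Chst11 had 91.8, 89.2 and 101.1 FPKM in rmMETRNL libraries, against 99.8, 97.8 and 92.2 FPKM in vehicle libraries, and its groups overlapped.

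Of the 10 lower non-Gm members with the smallest p, adjusted p-values in limma lay between 0.189 and 0.319. AI506816, Snhg8, 2410006H16Rik, Snhg6, Epb41l4aos and Mirt1 belong to this set and are described above. D730003I15Rik (chromosome 1, 191224454 to 191226140) had 1.72, 1.36 and 1.32 FPKM in rmMETRNL libraries, against 2.27, 2.66 and 2.44 FPKM in vehicle libraries (limma, log2 fold change -0.49, SE 0.10, adjusted p = 0.189). Atf3, the stress-induced transcription factor gene 6415 bases away, had 638.1, 638.6 and 645.4 FPKM in rmMETRNL libraries, against 634.1, 611.1 and 601.5 FPKM in vehicle libraries. The neighbours thus lay on opposite sides, each without overlap between groups. AC165960.2 had 1.61, 0.914 and 1.45 FPKM in rmMETRNL libraries, against 2.25, 1.88 and 1.97 FPKM in vehicle libraries, without overlap. In 2900093K20Rik the values were 1.93, 0.899 and 1.07 FPKM in rmMETRNL libraries, against 2.21, 1.85 and 2.71 FPKM in vehicle libraries, which overlapped. AC165960.2 and 2900093K20Rik overlap the spans of the coding genes Rab5a and Oser1, in that order. Rab5a had 25.2 to 29.9 FPKM in rmMETRNL libraries, against 24.1 to 26.3 FPKM in vehicle libraries. Oser1 had 16.7 to 18.9 FPKM in rmMETRNL libraries, against 13.3 to 16.9 FPKM in vehicle libraries. Both coding genes overlapped between groups.

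The class labels did not hold for every member. RefSeq classes 145 of the 307 as lncRNA, 16 as protein-coding and 1 as a pseudogene, and 145 had no match there. The most abundant member, Ifi30 (chromosome 8, 70762774 to 70766663), encodes a lysosomal thiol reductase and had 245.8, 248.0 and 227.4 FPKM in rmMETRNL libraries, against 245.5, 211.8 and 238.0 FPKM in vehicle libraries, with overlap. Cct6a, a chaperonin subunit, had 24.4, 25.1 and 20.2 FPKM in rmMETRNL libraries, against 23.96, 25.9 and 24.03 FPKM in vehicle libraries. Tmem134 had 5.57, 4.92 and 4.69 FPKM in rmMETRNL libraries, against 5.91, 5.94 and 6.29 FPKM in vehicle libraries, without overlap (limma, log2 fold change -0.22, SE 0.07, adjusted p = 0.274). Zswim6, Ptpmt1, Spata5l1, 1810058I24Rik, Ndufb1-ps, Tmem250-ps, D930016D06Rik and 5 genes with Gm numbers complete the 16 with Gm15832, which RefSeq names Rnf149. Among the 16, limma called 0, and the median log2 fold change was -0.03. Without the 16, calls in limma stayed at 0.

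Many lncRNA genes share sequence with another gene, which limits what their counts mean. Over 10% of exon bases were shared with another gene on either strand in 97 members, 59 of them antisense, and over 50% in 13. Of the 307, 186 shared at most 10% of both exon bases and 31-base words with any other gene. Among these 186, limma called 0 and the median log2 fold change was 0.03, against -0.0029 for the 121 that shared more. Voom called 3 of the 186 (1.61%) and 2 of the 121 (1.65%), where it called 0.618% of all genes tested. In 67 members an opposite-strand coding gene that was itself tested held over 10% of the exon bases. The coding gene was more abundant in 58 of the 67, with a median of 14.3 FPKM, against 2.18 FPKM for the lncRNA genes. The log2 fold changes of both had the same sign in 35 of 67 pairs and correlated across pairs with r = 0.33, where each pair shares its libraries and possibly reads. The 67 pairs are not all separate loci. Mid1, with a log2 fold change of 0.32, is the partner of Gm15247, Gm15726 and G530011O06Rik, which were all positive.

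**Figure D4:**
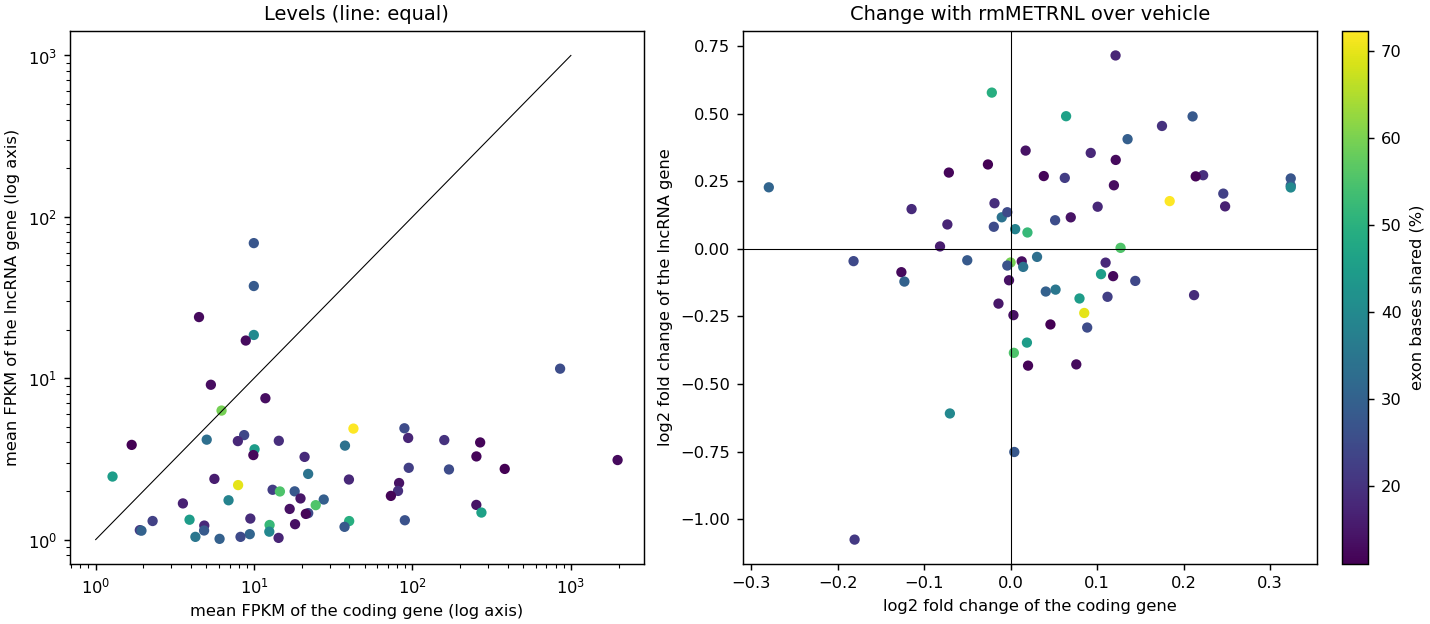
The 67 lncRNA genes that share over 10% of their exon bases with a tested coding gene on the opposite strand: mean FPKM of lncRNA gene against coding gene on log axes (left; the line marks equal levels) and their log2 fold changes, rmMETRNL over vehicle (right); colour gives the percent of exon bases shared. Most points lie under the line (58 of 67), and 35 pairs have fold changes of the same sign.

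The exceptions to that order of levels included 3 lncRNA genes that overlap Mid1, a ubiquitin ligase gene at the end of the X chromosome. Mid1 had 11.9, 10.6 and 11.01 FPKM in rmMETRNL libraries, against 10.1, 7.16 and 9.04 FPKM in vehicle libraries. G530011O06Rik, with 40.0% of exon bases shared, had 19.3, 20.1 and 20.7 FPKM in rmMETRNL libraries, against 19.7, 14.2 and 17.3 FPKM in vehicle libraries. Gm15247, with 27.3% shared, had 84.6, 69.1 and 71.3 FPKM in rmMETRNL libraries, against 71.1, 57.9 and 58.5 FPKM in vehicle libraries. Vehicle library 2 was lowest in Mid1 and in both lncRNA genes, and reads of the overlapping genes cannot be told apart without a stated strand setting.

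Genes with opposite-strand names, 13 in all, had 7 positive and 6 negative log2 fold changes, a median of 0.04 and 0 calls in limma. The median was -0.0381 without rmMETRNL library 1 and -0.0068 without vehicle library 2. Junos, opposite the AP-1 subunit gene Jun, had 4.33, 3.61 and 4.29 FPKM in rmMETRNL libraries, against 3.72, 3.80 and 3.44 FPKM in vehicle libraries, with overlap, while Jun had 74.4, 72.7 and 70.6 FPKM in rmMETRNL libraries, against 64.7, 58.8 and 59.1 FPKM in vehicle libraries, without. Kdm6bos, which shares 34.0% of its exon bases with the histone demethylase gene Kdm6b, had 4.75, 2.73 and 4.66 FPKM in rmMETRNL libraries, against 3.77, 2.85 and 4.18 FPKM in vehicle libraries. Kdm6b had 41.6, 32.8 and 37.8 FPKM in rmMETRNL libraries, against 40.7, 36.1 and 35.9 FPKM in vehicle libraries. In this pair library 2 was lowest among rmMETRNL libraries for both genes. Dnmt3aos had 2.14, 1.43 and 1.90 FPKM in rmMETRNL libraries, against 1.62, 1.89 and 1.67 FPKM in vehicle libraries, with overlap, and the DNA methyltransferase gene Dnmt3a had 10.8, 10.8 and 11.8 FPKM in rmMETRNL libraries, against 9.47, 9.40 and 9.17 FPKM in vehicle libraries, without. Brip1os, Scpep1os, Galnt6os, Rab10os, Far1os, Tnfsf13os and Fam120aos lay between 0.752 and 4.68 FPKM in rmMETRNL libraries, against 0.774 and 3.86 FPKM in vehicle libraries, and all 7 overlapped between groups.

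Sense-intronic members sit within an intron of a gene on the same strand, and 20 of the 21 lay inside a protein-coding gene. That gene was the more abundant in 19 of the 20. The highest, Gm17024, had a mean of 20.6 FPKM inside Ifrd1, which had 60.3 FPKM. Limma called 0 of the 21, and their median log2 fold change was 0.07.

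The Gm-numbered members were 196, with 113 positive and 83 negative log2 fold changes, and a median of 0.06. In 28 (14.3%) the groups did not overlap, against 21.5% of all genes tested. Of the 28, 20 were higher (10.9% of all genes were) and 8 lower with rmMETRNL (10.6% of all genes). Gm13571 (chromosome 2, 60338188 to 60371234) had 10.8, 12.2 and 12.1 FPKM in rmMETRNL libraries, against 7.70, 8.76 and 8.20 FPKM in vehicle libraries, without overlap (log2 fold change 0.46, SE 0.07, adjusted p = 0.151 in limma and 0.0196 in voom). It shares 8.03% of its exon bases with Ly75, the endocytic receptor gene DEC-205, which had 18.8, 19.95 and 21.8 FPKM in rmMETRNL libraries, against 15.99, 17.8 and 17.7 FPKM in vehicle libraries. The 2 genes lay on the same side without overlap. Gm48653 had 1.76, 2.03 and 1.46 FPKM in rmMETRNL libraries, against 0.904, 1.03 and 0.946 FPKM in vehicle libraries, without overlap (limma, log2 fold change 0.485, SE 0.11, adjusted p = 0.199). Gm49041, whose start lies 279 bases from that of Kdm7a, had 2.37, 2.23 and 3.47 FPKM in rmMETRNL libraries, against 4.73, 4.13 and 5.55 FPKM in vehicle libraries (limma, log2 fold change -0.66, SE 0.15, adjusted p = 0.209).

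Gm11706 had the smallest p among lower Gm-numbered members, with 0.814, 0.403 and 0 FPKM in rmMETRNL libraries, against 1.67, 1.89 and 2.09 FPKM in vehicle libraries. Behind these stand 4, 2 and 0 reads in rmMETRNL libraries, against 8, 8 and 12 reads in vehicle libraries. The most abundant Gm-numbered member, Gm10076, had 88.5, 50.8 and 33.01 FPKM in rmMETRNL libraries, against 65.0, 45.4 and 214.9 FPKM in vehicle libraries. RefSeq classes it as a pseudogene, 84.2% of its 31-base words occur in another gene, and its fold change of -0.69 was -0.03 without vehicle library 3. Gm26917 had 48.0, 34.7 and 18.5 FPKM in rmMETRNL libraries, against 49.1, 47.9 and 58.0 FPKM in vehicle libraries, with overlap, and its log2 fold change of -0.69 was -0.33 without rmMETRNL library 3.

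Of the 111 members with other symbols, 49 are named under the rule in use here and 62 are not. These 62 had 26 positive and 36 negative log2 fold changes, a median of -0.03 and a range from -0.43 to 0.42, and limma called 0. The groups did not overlap in 7 of the 62 (11.3%), against 21.5% of all genes tested. Of the 7, 3 were higher (10.9% of all genes were) and 4 lower with rmMETRNL (10.6% of all genes). This number is kept low because the genes with the smallest p were taken out first. The 7 are named here after their values were seen. Higher were Gdap10, 1700060J05Rik and 1700020I14Rik, which RefSeq names Oip5os1, at 5.70, 5.03 and 5.54 FPKM in rmMETRNL libraries, against 4.57, 4.97 and 4.89 FPKM in vehicle libraries. Lower were Ndufb1-ps, D430020J02Rik, Gt(ROSA)26Sor and 1810026B05Rik, which RefSeq names Chaserr. Gt(ROSA)26Sor, the transcript of the Rosa26 locus used for transgenes, had 3.87, 3.76 and 3.94 FPKM in rmMETRNL libraries, against 4.05, 4.19 and 4.96 FPKM in vehicle libraries. Chaserr had 4.44, 4.46 and 3.67 FPKM in rmMETRNL libraries, against 4.57, 4.63 and 4.94 FPKM in vehicle libraries, and shares 30.5% of its exon bases with another gene. Among the abundant named genes left, 4930455G09Rik had 20.7, 22.2 and 17.2 FPKM in rmMETRNL libraries, against 22.1, 21.97 and 19.3 FPKM in vehicle libraries, with overlap.

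Near the level that chose the members, 0610009L18Rik, Gm17590 and Gm14461 were just inside at means of 1.005, 1.011 and 1.018 FPKM. Just outside were Gm16001, Gm45016 and Gm49030 at 0.999, 0.997 and 0.989 FPKM.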

How the data were processed

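RNA-seq values of 6 libraries were used, 3 of rmMETRNL-treated and 3 of vehicle-treated macrophages. Per the labels' protocols, libraries were made from 1 ug of total RNA with an Illumina TruSeq RNA kit. The authors deposited 1 table of FPKM per gene and library, with gene positions, lengths and classes. The genome named in the submitters' processing notes is GRCm38, also given as mm10. Aligner, counter, annotation release and strand setting: not given in the sources used here. Coordinates are those of the table: 303 of the 307 members had the same start and end in GENCODE M21 (GRCm38). Shared exon bases and 31-base words (of all annotated transcripts of a member) were computed from that annotation.

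The members and the gene lists were chosen with earlier results of these data known. Columns were assigned to groups by the letters of their names. Reads were recovered from FPKM times gene length divided by the worth of 1 read in that library, and 100% of values came out whole (within 0.05 reads). All 9867 genes averaging 1 FPKM or more were fitted with limma 3.58.1 (R 4.3.3, mean-variance trend, two-sided) on log2(FPKM + 1), a pseudocount of 1, with Benjamini-Hochberg adjustment over them and a threshold of 0.05. The fit was tested on simulated data. Of the members with symbols other than Gm numbers, the 12 most abundant and the 10 of smallest p per direction are named. Also named are the members of the lists, and of the Gm-numbered ones the 3 most abundant and the 2 of smallest p per direction. No gene list was tested as a set. Alternatives were pseudocounts of 0.1 and 0.01, no filter, a minimum of 5 FPKM, TPM, median-of-ratios scaling, limma with array weights or no trend, a replicate block, fewer gene classes, voom on recovered reads, and each library left out. Depth limits short low genes, and their number of reads is given where it is small. Tables and figures were made with pandas 2.3.3 and matplotlib 3.10.9 in Python 3.11.15.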

Additional observations from a re-analysis of the deposited data

How the results depend on the processing

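Limma on log2(FPKM + 1) called 0 lncRNA genes and 0 of all genes, and other settings moved these counts. Voom on recovered reads called 5 lncRNA genes and 61 of all genes. Among all genes, no filter on low values gave 5, TPM 1, array weights 1, and a fit of protein-coding and lncRNA genes only 4, each with 0 lncRNA genes. The causes were not tested. The 57 lncRNA genes whose groups do not overlap became 21 at a minimum of 5 FPKM, where fewer genes enter by construction. The share was 27.6% of members from 5 to 10 FPKM and 35.1% of those at 10 FPKM or more. Protein-coding genes at these levels gave 20.5% and 30.7%. Among members that share at most 10% of sequence, a smaller subset chosen after seeing the data, 31 (16.7%) did not overlap, against 21.5% of all genes tested. With 1 library left out the count was 84 to 95, where fewer values must part. The share of all genes is not given for those fits, so these counts are not read as a result. For the 34 genes whose fold changes were followed, 560 of 565 alternative fits kept the direction and the side of the threshold, 5 became called (voom) and 0 reversed. The 34 include the 10 non-Gm members of smallest p in each direction, chosen from these same libraries. Named genes with fold changes near 0, such as Snhg1 and Gm14005, were not followed. Since 0 of the 34 were called in the main fit, keeping direction and side was largely set in advance and adds no support. The median of the lncRNA genes ranged from -0.017 to 0.04. The snoRNA host genes had a median between -0.28 and -0.16 and 8 to 10 of 10 with negative fold changes, and the listed microRNA host genes a median between 0.22 and 0.35, under the alternatives run for these lists, which do not include the minimum of 5 FPKM.

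With the replicate number as a block, limma called 0 lncRNA genes and 0 of all genes, and the median of the lncRNA genes was 0.015. Deviations of same-numbered libraries correlated across genes with r of -0.021, 0.007 and -0.045, so the numbers were not taken to pair the samples. Depth limits what can be read from low genes: 10 reads at 1 kb are 0.549 to 0.748 FPKM.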
